A study of Homo sapiens with 12 samples.

Results

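A set of 47 genes that act in mitosis was followed in 3 triple-negative breast cancer cell lines treated with JQ1, GSK2801 or both. The members were chosen by gene symbol, and all 47 were present among the 28512 named genes and passed the filter on low values that left 14232 genes for testing. JQ1 is an inhibitor of the bromodomains of BET proteins, and GSK2801 is an inhibitor of the bromodomains of BAZ2A and BAZ2B. Both act by keeping these chromatin proteins from binding acetylated histones. The lines were SUM159, MDAMB231 and HCC1806, all established human breast carcinoma lines, and each was treated for 72 h with both inhibitors, with JQ1, with GSK2801 or with the vehicle DMSO. JQ1 was used at 300 nM in SUM159, 100 nM in MDAMB231 and 500 nM in HCC1806, and GSK2801 at 10 µM in each line. HCC1806 was grown in RPMI-based medium and the other lines in DMEM/F12-based medium, so for HCC1806 the line, the medium and the dose of JQ1 cannot be told apart. The JQ1 dose also differs between SUM159 and MDAMB231. There was 1 polyadenylated RNA library per line and treatment, 12 in all, so a line is the replicate of a treatment (n = 3) and a difference within 1 line has no replicate.

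Mitosis separates the duplicated chromosomes into daughter cells. CDK1 with cyclin B drives entry, kinesins and their partners build the spindle, and kinetochores couple chromosomes to microtubules while the spindle checkpoint holds the cell back. The anaphase-promoting complex then triggers the destruction of securin and cyclin B, separase cuts cohesin, and the central spindle guides cytokinesis. Transcripts of most of these genes rise together in late S phase, G2 and M, so in a growing population their level tracks how many cells are in those phases. In bulk RNA, fewer cells in a phase and less RNA per cell cannot be told apart.

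The promoters of such genes often carry the sequence TTTGAA, known as the cell cycle genes homology region, and the CCAAT box. They are shown here as background to a set that was followed together because its genes act in mitosis. RefSeq promoter windows of build GRCh38.p14 were found for 39 of the 47 members, with 48 windows in all. Within the 250 bases before the start, TTTGAA or its reverse complement TTCAAA was in 21 of the 48 windows (43.8%), against 13.3% of all 35116 windows of the same length. CCAAT or its reverse complement ATTGG was in 37 (77.1%), against 32.0% of all windows, and both motifs were in 19 (39.6%), against 4.69%. The 130 bases before the start are printed for 6 members that differ in their response, 5′ to 3′ on the gene's own strand, with the motifs in capitals. In MKI67 the last TTTGAA and the ATTGG after it share a base.
ESPL1 (chr12:53268169-53268298, plus strand): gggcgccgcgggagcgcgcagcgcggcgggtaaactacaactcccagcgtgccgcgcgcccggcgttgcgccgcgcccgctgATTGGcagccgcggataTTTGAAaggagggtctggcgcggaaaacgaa
KIF14 (chr1:200620752-200620881, minus strand): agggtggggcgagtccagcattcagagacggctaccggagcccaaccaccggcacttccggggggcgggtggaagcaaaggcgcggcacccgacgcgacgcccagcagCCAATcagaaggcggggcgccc
PLK1 (chr16:23678759-23678888, plus strand): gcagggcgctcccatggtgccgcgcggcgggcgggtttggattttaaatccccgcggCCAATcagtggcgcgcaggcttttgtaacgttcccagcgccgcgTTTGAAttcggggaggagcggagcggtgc
MKI67 (chr10:128126424-128126553, minus strand): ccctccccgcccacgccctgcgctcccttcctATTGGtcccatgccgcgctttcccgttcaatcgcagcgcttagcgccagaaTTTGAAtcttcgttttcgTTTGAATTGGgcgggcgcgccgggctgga
NCAPG (chr4:17810849-17810978, plus strand): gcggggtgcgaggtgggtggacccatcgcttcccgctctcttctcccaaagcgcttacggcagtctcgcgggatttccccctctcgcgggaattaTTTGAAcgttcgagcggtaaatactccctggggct
CDC20 (chr1:43358851-43358980, plus strand): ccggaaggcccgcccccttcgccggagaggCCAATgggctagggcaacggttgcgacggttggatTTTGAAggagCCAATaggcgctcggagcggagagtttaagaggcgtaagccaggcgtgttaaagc
ESPL1, PLK1, MKI67 and CDC20 show both motifs in these 130 bases. The KIF14 stretch shows CCAAT without TTTGAA, and the NCAPG stretch shows TTTGAA without CCAAT. Each printed stretch thus holds a motif, but not every member does. The windows of CENPE, KIF2C, MELK, NDC80 and NUF2 held neither motif in their 250 bases, and NUF2 was among the members that fell with both inhibitors. Of the 11 members that fell with both inhibitors in the test across lines, 5 had a promoter window, and 2 of these held TTTGAA and 4 held CCAAT. Among the other members with a window, 18 of 34 held TTTGAA and 28 held CCAAT.

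Values are the deposited signal, which is estimated reads scaled to a common upper quartile in every library. The signal is not per length, so it is compared between libraries and not between genes. The libraries held 24200000 to 46800000 estimated reads. The MDAMB231 library with both inhibitors was the deepest, and its 10 highest genes held the largest share of signal, 7.57% against 4.36% to 6.87% in the other libraries. Libraries of 1 line correlated at 0.935 to 0.993, and libraries of different lines at 0.685 to 0.810. HCC1806 expressed the epithelial gene CDH1 (14154 to 27121) with little of the mesenchymal gene VIM (46.9 to 173). VIM was 90380.3 to 142226 in SUM159 and 91479.9 to 140589 in MDAMB231, with CDH1 at 33.2 or less in both. The mesenchymal genes ZEB1 and FN1 were likewise lower in HCC1806 than in the other lines, but CDH2 and SPARC did not split the lines this way. CDH2 was 705 to 1412 in HCC1806 and 4.65 to 17.3 in MDAMB231. SPARC was 6.41 to 11.4 in HCC1806 and 1.83 to 3.77 in MDAMB231. PGR was 12.1 or less in each library and ESR1 138 or less, while ERBB2 was 1749 to 6456. The T cell marker CD3E was at 1.17 or less in each library. In SUM159 some markers of other cell types were detected, with the fibroblast markers COL1A1 at 10269 to 46871 and PDGFRB at 294 to 1637. PECAM1 reached 1145, PTPRC 422, DCN 227 and CD14 130, while COL1A2 was 8.2 or less. The part of these markers in the results was not tested.

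The 47 genes responded by line. In MDAMB231 they were lower with JQ1 and lower again with both inhibitors, in SUM159 they were mostly a little lower with each treatment, and in HCC1806 they scattered around the DMSO value. The median log2 ratio to DMSO with both inhibitors was −0.35 for SUM159, −2.22 for MDAMB231 and −0.04 for HCC1806. With JQ1 alone it was −0.33, −1.03 and 0.0035, and with GSK2801 alone −0.29, −0.04 and 0.01, in the same lines. The medians over all 14232 tested genes lay between −0.12 and 0.01 in the same comparisons.

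Members below their DMSO value numbered 38 in SUM159, 47 in MDAMB231 and 26 in HCC1806 with both inhibitors. The numbers were 39, 47 and 23 with JQ1, and 46, 32 and 22 with GSK2801. A ratio at least 2-fold below DMSO was reached by 3, 46 and 1 members with both inhibitors, against 15.2%, 14.3% and 13.5% of all tested genes. With JQ1 the numbers were 1, 25 and 0, against 13.3%, 9.17% and 10.1%. GSK2801 alone took no member 2-fold below DMSO, against 2.52%, 1.4% and 1.86% of all genes. With JQ1 and with both inhibitors, the share of members at least 2-fold lower was thus above the background in MDAMB231 and below it in the other lines.

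**Figure D1:**
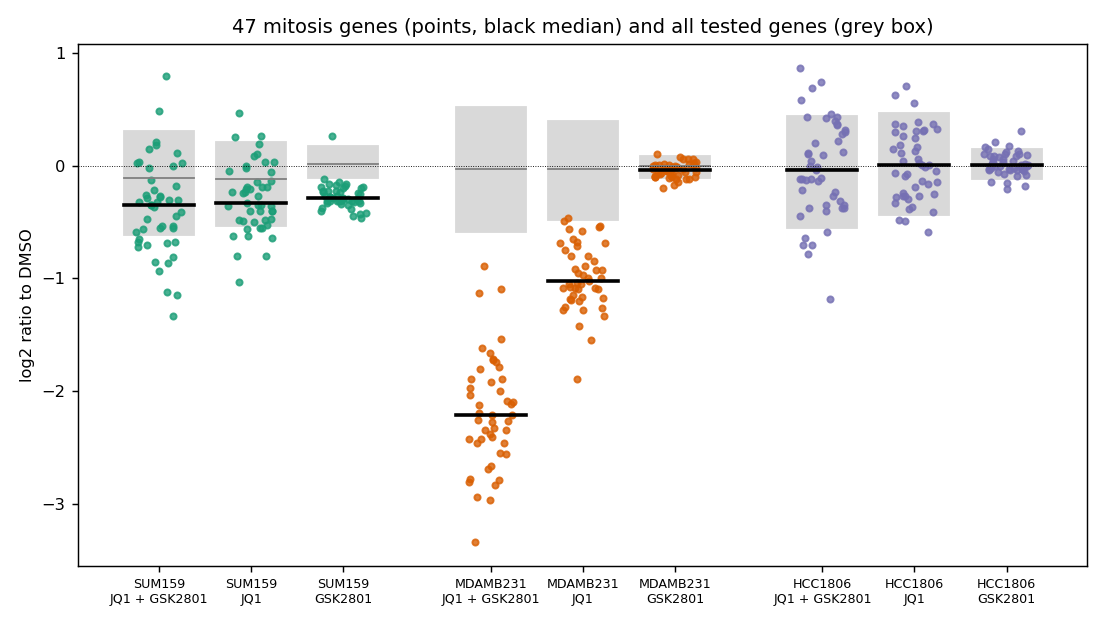
Log2 ratio of signal to DMSO of the same line for the 47 mitosis genes (points, horizontally jittered) in each line and treatment, with the member median in black and the median and interquartile range of all 14232 tested genes in grey. In MDAMB231 the member median is −2.22 with both inhibitors and −1.03 with JQ1, below the grey boxes, while the HCC1806 medians are within 0.04 of 0.

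The order of the treatments was uniform in MDAMB231, where all 47 members ran both inhibitors below JQ1 below DMSO. In SUM159 29 members did, and in HCC1806 16 did while 15 ran in the reverse order. HCC1806 split the set: 18 members were above DMSO with JQ1 and with both inhibitors, and 20 were below it in both. The genes above included TOP2A, BUB1, KIF11, NCAPH and NCAPG, and the genes below included FOXM1, AURKA, PLK1, ESPL1 and UBE2C. Of all 47 members, 46 had their lowest value of the 12 libraries in the MDAMB231 library with both inhibitors. The exception was BUB3, lowest in SUM159 with JQ1.

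**Figure D2:**
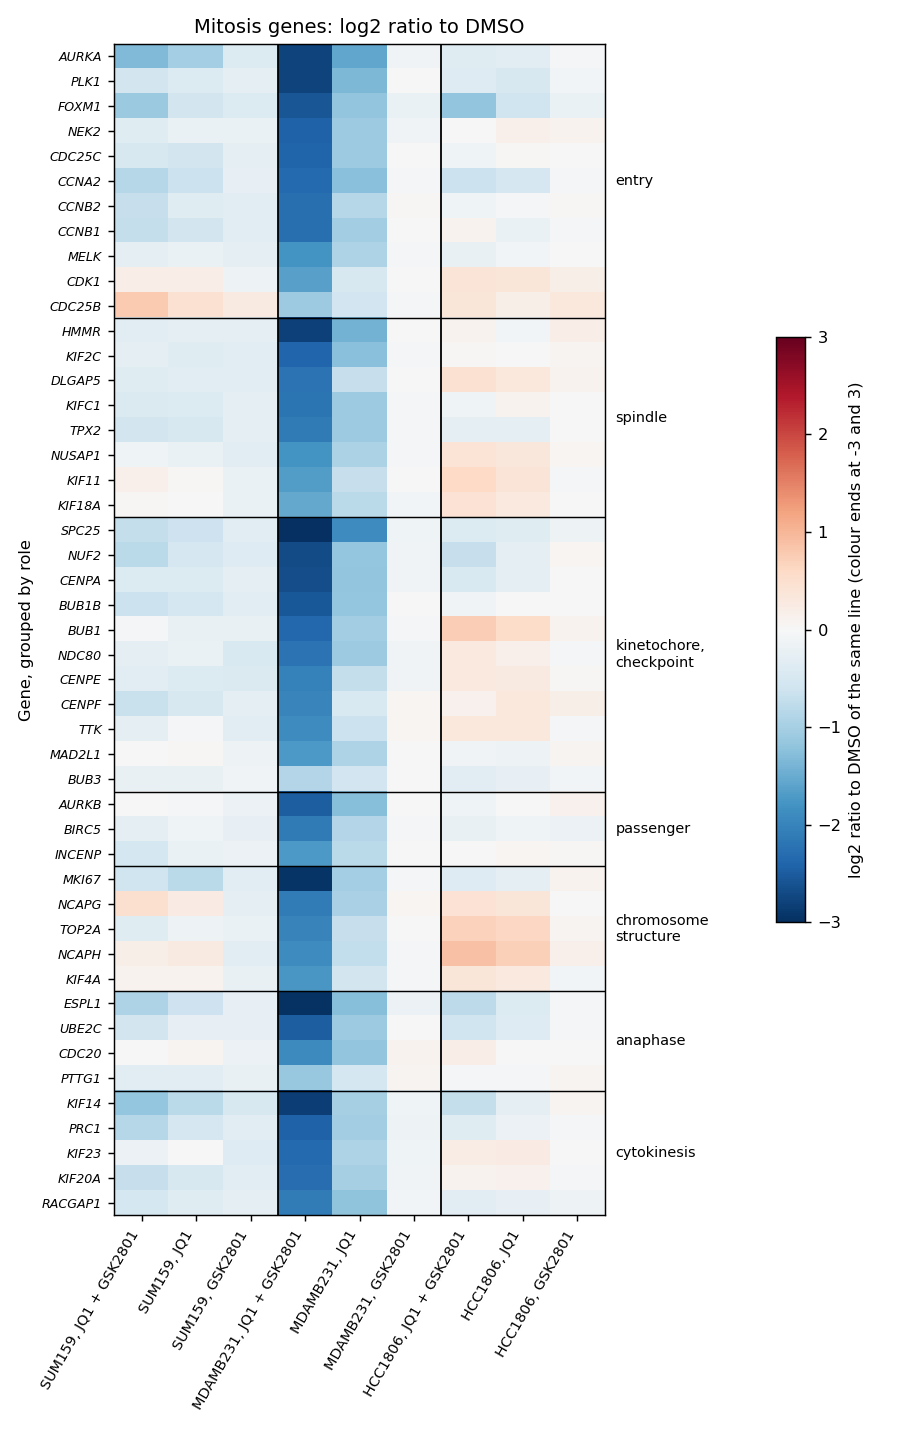
Log2 ratio of signal to DMSO of the same line for each of the 47 genes (rows, grouped by role and sorted within a role by the MDAMB231 value with both inhibitors) in the 9 treated libraries (columns). Blue is lower than DMSO and red higher. All 47 genes are blue in the MDAMB231 columns with JQ1, and 21 are red in HCC1806 with both inhibitors.

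Across the 3 lines the genes were tested with limma, with the line as a block and Benjamini-Hochberg adjustment over all 14232 genes. With both inhibitors 11 of the 47 fell and none rose (23.4% of the members, against 19.8% of all tested genes that fell). The 11 were FOXM1, ESPL1, KIF14, AURKA, NUF2, CCNA2, PRC1, UBE2C, RACGAP1, TPX2 and BUB3. With JQ1 alone 0 of the 47 passed, against 13.1% of all genes that fell and 9.52% that rose. An unadjusted p under 0.05 was reached by 4 of the 47 members and by 5301 of the 14232 genes. The median log2 difference of the members was −0.88 with both inhibitors and −0.40 with JQ1, against −0.09 and −0.08 over all genes. These 2 contrasts share the DMSO libraries. Members lower than DMSO in each of the 3 lines numbered 25 with both inhibitors and 22 with JQ1, against 30% and 28.8% of all genes.

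The count of 11 rested on the lines. Without SUM159 it was 1, without HCC1806 2, and without MDAMB231 12, of which 9 were among the 11. Those 12 included CDC25B and NCAPG, which were then higher than DMSO. Of all tested genes 3120, 2666 and 3156 passed in the same fits. Without the 1 MDAMB231 library with both inhibitors the count was 7, against 4087 of all genes. The count for JQ1 was 3 without MDAMB231, 0 without either other line, and 13 without the MDAMB231 library with both inhibitors. Of all genes 1532 passed for JQ1 without MDAMB231, 1643 without SUM159, 402 without HCC1806 and 3726 without that library. A fit with a separate JQ1 effect for each line, which takes the difference between lines out of the error, gave 37 members with both inhibitors and 13 with JQ1. In that fit 8758 and 7479 of the 14232 genes passed. For both inhibitors the count was 1 from only the 6 libraries compared, 0 without the line as a block and 7 without a variance trend. Of all genes 1012, 41 and 4619 passed in the same order. Among all genes called with JQ1, 58.0% were lower as deposited, but 47.1% after TMM rescaling, 46.8% after median-of-ratios rescaling and 45.9% after quantile normalization.

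Genes of mitotic entry (11 members) gave 3 falls with both inhibitors, against 19.8% of all tested genes that fell. Their median log2 difference was −1.01. The counts by role are small, and no role was tested as a set. FOXM1 encodes a transcription factor that activates late cell cycle genes and lies at chr12:2857681-2877155 on build hg38. FOXM1 signal stood at 1989 in SUM159, 1094 in MDAMB231 and 3541 in HCC1806 with both inhibitors, against 4336, 6470.3 and 8023 with DMSO. JQ1 alone left FOXM1 at 2962, 2855 and 5326, and GSK2801 alone left it at 3287, 5648 and 6955, in the same lines. It was the only member at least 2-fold lower with both inhibitors in each of the 3 lines, with log2 ratios of −1.12 in SUM159, −2.56 in MDAMB231 and −1.18 in HCC1806. Its mean difference was −1.62 ± 0.28 (log2 ± SE, limma adjusted p = 0.00289, n = 3), 0.325 times DMSO. FOXM1 kept this call under each alternative tried except the fit without the line as a block, and with JQ1 alone it was −0.77 ± 0.28 (adjusted p = 0.0768) by limma.

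AURKA encodes the Aurora A kinase of centrosomes and spindle poles and lies at chr20:56369389-56392337. AURKA signal stood at 1225 in SUM159, 1006 in MDAMB231 and 3635 in HCC1806 with both inhibitors, against 3086, 6952 and 4642 with DMSO. JQ1 alone left AURKA at 1509.8, 2375 and 3684, and GSK2801 alone left it at 2305, 6480.2 and 4519, in the same lines. The libraries with JQ1 were below those without it in each line, and the gap was narrowest in HCC1806. With both inhibitors it fell by limma, at −1.49 ± 0.40 (adjusted p = 0.0195), and with JQ1 it was −0.97 ± 0.40 (adjusted p = 0.112). CCNA2 encodes cyclin A2, the partner of CDK2 in S phase and of CDK1 in G2. CCNA2 signal stood at 2548 in SUM159, 1105 in MDAMB231 and 4197 in HCC1806 with both inhibitors, against 4602, 5606 and 6543 with DMSO. JQ1 alone left CCNA2 at 2944, 2333 and 4643, and GSK2801 alone left it at 3867, 5360.4 and 6316, in the same lines. It was lower with JQ1 than with DMSO in each line, and lower again with both. CCNA2 fell with both inhibitors (−1.28 ± 0.31 (adjusted p = 0.0126) by limma), and with JQ1 it was −0.80 ± 0.31 (adjusted p = 0.0928).

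PLK1 encodes the Polo-like kinase that promotes entry and spindle assembly. PLK1 signal stood at 2549 in SUM159, 634 in MDAMB231 and 2903 in HCC1806 with both inhibitors, against 3757, 4379.7 and 3767 with DMSO. JQ1 alone left PLK1 at 2838, 1733 and 2696, and GSK2801 alone left it at 3103, 4325 and 3532, in the same lines. Its lowest value of the 12 was in MDAMB231 with both inhibitors, but the difference over the lines did not pass (−1.24 ± 0.44 (adjusted p = 0.0576) by limma, and −0.74 ± 0.44 (adjusted p = 0.258) with JQ1). CCNB1 encodes cyclin B1, the activator of CDK1. CCNB1 signal stood at 4524 in SUM159, 1676 in MDAMB231 and 8070.2 in HCC1806 with both inhibitors, against 7445, 8028 and 7551 with DMSO. JQ1 alone left CCNB1 at 5053, 3867 and 6617, and GSK2801 alone left it at 5999.6, 8077 and 7399, in the same lines. HCC1806 with both inhibitors was above its DMSO value, and the other lines were below theirs. The mean difference was −0.96 ± 0.39 (adjusted p = 0.0877) with both inhibitors and −0.60 ± 0.39 (adjusted p = 0.299) with JQ1 by limma. CDK1 encodes the kinase itself. CDK1 signal stood at 3668 in SUM159, 1497 in MDAMB231 and 5161 in HCC1806 with both inhibitors, against 3171, 4601 and 3926 with DMSO. JQ1 alone left CDK1 at 3621, 3271 and 5082, and GSK2801 alone left it at 2837, 4604 and 4415, in the same lines. With both inhibitors it was above DMSO in SUM159 and HCC1806 and below it in MDAMB231, and the mean was −0.34 ± 0.36 (adjusted p = 0.491) by limma with a 95% interval of −1.15 to 0.47. With JQ1 it was 0.02 ± 0.36.

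CDC25B encodes a phosphatase that removes inhibitory phosphates from CDK1 and lies at chr20:3786772-3806121. CDC25B signal stood at 15513 in SUM159, 1953 in MDAMB231 and 5543 in HCC1806 with both inhibitors, against 8962, 4168 and 4292 with DMSO. JQ1 alone left CDC25B at 12372, 2816 and 4869.9, and GSK2801 alone left it at 10746, 4095 and 5301, in the same lines. SUM159 and HCC1806 were above DMSO with every treatment and MDAMB231 was below it. With JQ1 and with both inhibitors CDC20, CDK1, KIF11, KIF4A, NCAPG and NCAPH had the same directions. Against DMSO, CDC25B stood apart from the group in its rise with GSK2801 alone in SUM159 and HCC1806. Over the lines the difference was 0.02 ± 0.30 (adjusted p = 0.964) with both inhibitors and 0.03 ± 0.30 (adjusted p = 0.956) with JQ1 by limma, and the sign with both inhibitors turned to −0.04 after quantile normalization. The other members of this role, CCNB2, CDC25C, MELK and NEK2, did not pass with JQ1 or with both inhibitors, and their log2 ratios with both inhibitors were −2.42 to −1.78 in MDAMB231 and −0.21 to −0.01 in HCC1806.

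**Figure D3:**
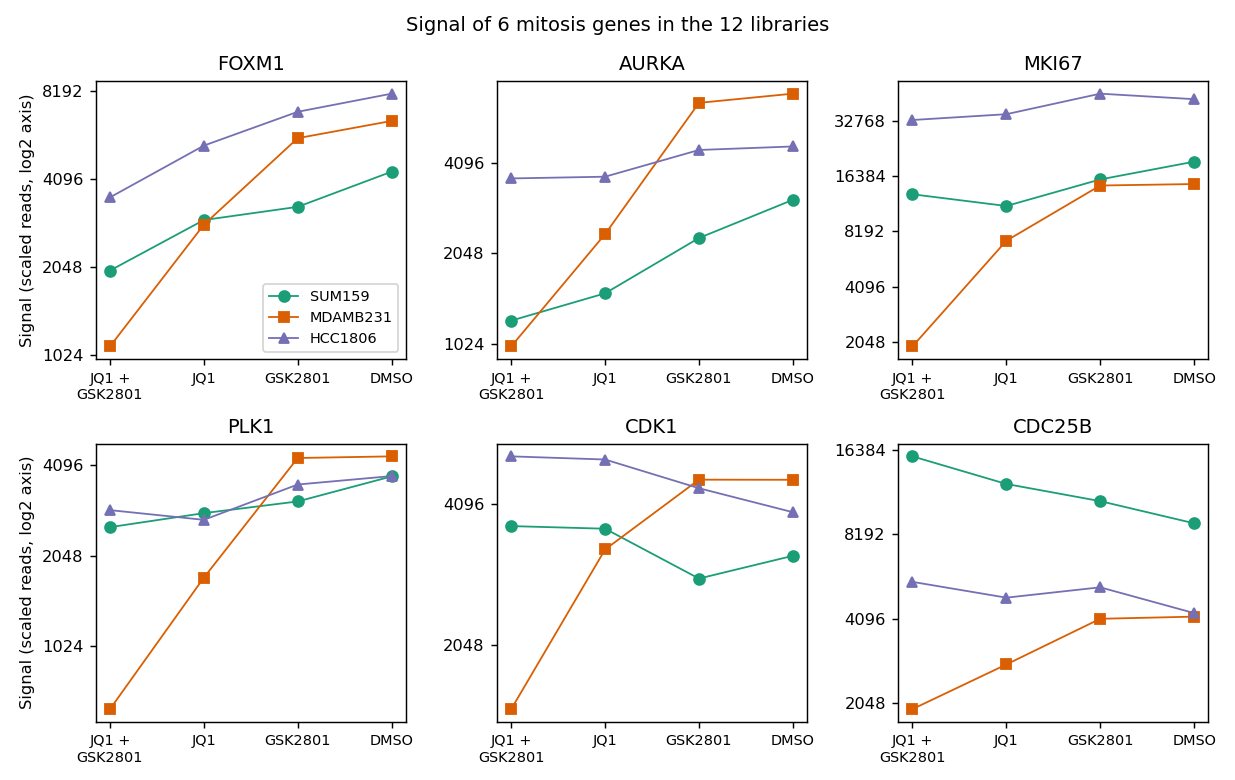
Signal (scaled reads, log2 axis) of 6 members in the 12 libraries, with 1 point per line and treatment and lines joining the libraries of 1 cell line. FOXM1 is lowest with both inhibitors in each line (1989 in SUM159, 1094 in MDAMB231 and 3541 in HCC1806), whereas with both inhibitors CDC25B has its highest value in SUM159 (15513) and its lowest in MDAMB231 (1953).

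Spindle genes (8 members) gave 1 fall with both inhibitors, TPX2, against 19.8% of all tested genes that fell. Their median log2 difference was −0.79 over the lines, with −0.31 in SUM159, −2.16 in MDAMB231 and 0.26 in HCC1806. TPX2 encodes the protein that activates Aurora A on spindle microtubules. TPX2 signal stood at 6777 in SUM159, 3902 in MDAMB231 and 22864 in HCC1806 with both inhibitors, against 9951, 17064 and 27546 with DMSO. JQ1 alone left TPX2 at 7184, 8026 and 22484, and GSK2801 alone left it at 8263, 16485 and 27475, in the same lines. It was below DMSO in each line with JQ1 and with both inhibitors, and the fall with both was −0.98 ± 0.33 (adjusted p = 0.0463) by limma. TPX2 did not pass after TMM or median-of-ratios rescaling. KIF11 encodes the kinesin that pushes spindle poles apart. KIF11 signal stood at 5301 in SUM159, 1967 in MDAMB231 and 10177 in HCC1806 with both inhibitors, against 4795, 6236 and 6779 with DMSO. JQ1 alone left KIF11 at 4891, 3866 and 8857, and GSK2801 alone left it at 4195, 6274 and 6617, in the same lines. It was above DMSO in SUM159 and HCC1806 with both inhibitors, and the mean was −0.31 ± 0.39 (adjusted p = 0.566) by limma, with an interval of −1.20 to 0.58. KIF18A encodes a kinesin that limits chromosome movement at the metaphase plate. KIF18A signal stood at 868 in SUM159, 618 in MDAMB231 and 2317 in HCC1806 with both inhibitors, against 847, 1794 and 1719 with DMSO. JQ1 alone left KIF18A at 834, 1029.9 and 2121, and GSK2801 alone left it at 739, 1704 and 1732, in the same lines. KIF18A was above DMSO in HCC1806 and near it in SUM159 in the libraries with JQ1. HMMR, a microtubule-associated protein, is named for its levels, after they were seen. HMMR signal stood at 1564 in SUM159, 73.4 in MDAMB231 and 3791 in HCC1806 with both inhibitors, against 1958, 521 and 3538 with DMSO. JQ1 alone left HMMR at 1619, 194 and 3362, and GSK2801 alone left it at 1602, 524 and 4088, in the same lines. The HMMR signal in MDAMB231 was below that of the other lines with every treatment. The log2 ratios with both inhibitors of the other members, NUSAP1, DLGAP5, KIF2C and KIFC1, were −2.38 to −1.80 in MDAMB231 and −0.12 to 0.46 in HCC1806.

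Kinetochore and checkpoint genes (11 members) gave 2 falls with both inhibitors, NUF2 and BUB3, against 19.8% of all tested genes that fell. Their median was −0.73. NDC80, NUF2 and SPC25 encode subunits of the NDC80 complex, which binds microtubule ends. NUF2 signal stood at 680.3 in SUM159, 361 in MDAMB231 and 1349.8 in HCC1806 with both inhibitors, against 1197, 2332 and 2198 with DMSO. JQ1 alone left NUF2 at 847, 1041 and 1822, and GSK2801 alone left it at 920.3, 2159.6 and 2286, in the same lines. Each line was lowest with both inhibitors, and NUF2 fell by limma (−1.40 ± 0.37 (adjusted p = 0.0181)). SPC25 lies at chr2:168834132-168913371. SPC25 signal stood at 329 in SUM159, 63.4 in MDAMB231 and 538 in HCC1806 with both inhibitors, against 538, 651 and 710.3 with DMSO. JQ1 alone left SPC25 at 348, 174 and 550.1, and GSK2801 alone left it at 422, 598 and 637, in the same lines. SPC25 had the lowest log2 ratio of any member in MDAMB231, at −3.34 with both inhibitors and −1.89 with JQ1, yet its mean difference did not pass (−1.48 ± 0.54 (adjusted p = 0.0605) with both inhibitors and −0.96 ± 0.54 (adjusted p = 0.228) with JQ1 by limma). NDC80 signal stood at 962 in SUM159, 489.5 in MDAMB231 and 2556 in HCC1806 with both inhibitors, against 1154, 2277 and 2099.9 with DMSO. JQ1 alone left NDC80 at 1012, 1073 and 2351, and GSK2801 alone left it at 845, 2124 and 2015, in the same lines. NDC80 was above DMSO in HCC1806 and below it in the other lines with both inhibitors, so the 3 subunits did not share a direction in HCC1806.

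BUB3, BUB1, BUB1B, MAD2L1 and TTK carry the spindle checkpoint signal. BUB3 signal stood at 3971 in SUM159, 5560.2 in MDAMB231 and 4488 in HCC1806 with both inhibitors, against 4611, 10294 and 5595 with DMSO. JQ1 alone left BUB3 at 3928, 6888 and 4714, and GSK2801 alone left it at 4253, 10449.6 and 5268, in the same lines. BUB3 moved least of the members in MDAMB231 (−0.89), but it was below DMSO in each line and its fall passed (−0.47 ± 0.15 (adjusted p = 0.0348) by limma). BUB3 did not pass after TMM or median-of-ratios rescaling. BUB1 signal stood at 3454 in SUM159, 1514 in MDAMB231 and 11152 in HCC1806 with both inhibitors, against 3515, 7694 and 6653 with DMSO. JQ1 alone left BUB1 at 2994, 3715 and 9805, and GSK2801 alone left it at 3009, 7527 and 7150.2, in the same lines. BUB1 was highest with both inhibitors in HCC1806 and lowest with both in MDAMB231, and its mean did not pass. The other members, CENPA, CENPE, CENPF, BUB1B, MAD2L1 and TTK, ranged from −2.67 (CENPA, the centromeric histone variant) to −1.73 (MAD2L1) in MDAMB231 with both inhibitors. In HCC1806 with both inhibitors TTK (0.32), CENPE (0.30) and CENPF (0.12) were above DMSO. CENPA (−0.45), BUB1B (−0.11) and MAD2L1 (−0.11) were below it there.

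The chromosomal passenger genes AURKB, BIRC5 and INCENP encode the kinase complex that corrects chromosome attachment. None was called with JQ1 or with both inhibitors, against 13.1% and 19.8% of all tested genes that fell. AURKB signal stood at 1024 in SUM159, 401 in MDAMB231 and 3479 in HCC1806 with both inhibitors, against 1027, 2212 and 3806 with DMSO. JQ1 alone left AURKB at 991, 908 and 3826, and GSK2801 alone left it at 914, 2194 and 4161, in the same lines. AURKB was near its DMSO value in SUM159 and HCC1806 and below it in MDAMB231 in the libraries with JQ1, with log2 ratios of −0.0033 in SUM159, −2.46 in MDAMB231 and −0.13 in HCC1806 with both inhibitors. BIRC5 had −0.28 in SUM159, −2.12 in MDAMB231 and −0.23 in HCC1806, and INCENP had −0.54 in SUM159, −1.72 in MDAMB231 and −0.02 in HCC1806.

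Chromosome structure genes (5 members) gave no call with both inhibitors, against 19.8% of all tested genes that fell. Their median of −0.42 with both inhibitors was the highest of the 7 roles. MKI67 encodes Ki-67, a coat protein of mitotic chromosomes and a proliferation marker, and lies at chr10:128096659-128126385. MKI67 signal stood at 13064 in SUM159, 1936 in MDAMB231 and 33186 in HCC1806 with both inhibitors, against 19668, 14857 and 43102 with DMSO. JQ1 alone left MKI67 at 11278, 7290.1 and 35693, and GSK2801 alone left it at 15738, 14582 and 46182, in the same lines. Each line was below DMSO with JQ1 and with both inhibitors, but the log2 ratio of both inhibitors to JQ1 was −1.91 in MDAMB231 and 0.21 in SUM159. The difference over the lines was −1.30 ± 0.47 (adjusted p = 0.0583) with both inhibitors and −0.70 ± 0.47 (adjusted p = 0.31) with JQ1 by limma. TOP2A encodes the topoisomerase that untangles sister chromatids. TOP2A signal stood at 17183 in SUM159, 5228 in MDAMB231 and 26038 in HCC1806 with both inhibitors, against 21938, 20955 and 16173 with DMSO. JQ1 alone left TOP2A at 19835, 13079.6 and 24932, and GSK2801 alone left it at 19089, 20638 and 17124, in the same lines. It was above DMSO in HCC1806 with JQ1 and with both inhibitors, and below it in the other lines.

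NCAPH and NCAPG encode subunits of condensin I, which compacts chromosomes. NCAPH signal stood at 1723 in SUM159, 914 in MDAMB231 and 4958 in HCC1806 with both inhibitors, against 1518, 3398 and 2714 with DMSO. JQ1 alone left NCAPH at 1817, 2023 and 4437, and GSK2801 alone left it at 1222, 3295 and 3013, in the same lines. NCAPH had the highest log2 ratio of any member in HCC1806 with both inhibitors (0.87), and its mean was −0.28 ± 0.47 (adjusted p = 0.668) by limma, with an interval of −1.33 to 0.77, and 0.07 ± 0.47 with JQ1. NCAPG signal stood at 4091 in SUM159, 1809 in MDAMB231 and 5979 in HCC1806 with both inhibitors, against 2929.7, 7739.8 and 4419.8 with DMSO. JQ1 alone left NCAPG at 3495, 3949 and 5697, and GSK2801 alone left it at 2404, 8049.6 and 4457, in the same lines. NCAPG followed the same pattern, with ratios with both inhibitors of 0.48 in SUM159, −2.10 in MDAMB231 and 0.44 in HCC1806. KIF4A, a kinesin on chromosome arms, was near zero with JQ1 over the lines at −0.05 ± 0.38, and that sign turned, to 0.0084 after TMM and 0.012 after median-of-ratios rescaling. KIF4A signal stood at 1893 in SUM159, 972 in MDAMB231 and 3867 in HCC1806 with both inhibitors, against 1755, 3256 and 3014 with DMSO. JQ1 alone left KIF4A at 1886, 2230.3 and 3706, and GSK2801 alone left it at 1505, 3117 and 2855, in the same lines. KIF4A was above DMSO in SUM159 and HCC1806 with JQ1 and with both inhibitors.

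Anaphase genes (4 members) gave 2 falls with both inhibitors, ESPL1 and UBE2C, against 19.8% of all tested genes that fell. Their median was −0.88. ESPL1 encodes separase, the protease that cuts cohesin, and lies at chr12:53268299-53293643. ESPL1 signal stood at 625 in SUM159, 179 in MDAMB231 and 1085 in HCC1806 with both inhibitors, against 1192, 1408 and 1876 with DMSO. JQ1 alone left ESPL1 at 771, 577 and 1411, and GSK2801 alone left it at 1010.4, 1253 and 1839, in the same lines. The order both inhibitors, JQ1, GSK2801 and DMSO from low to high held in each line. ESPL1 fell with both inhibitors (−1.56 ± 0.39 (adjusted p = 0.0143) by limma), and with JQ1 it was −0.77 ± 0.39 (adjusted p = 0.18). UBE2C encodes the ubiquitin-conjugating enzyme of the anaphase-promoting complex. UBE2C signal stood at 985 in SUM159, 895 in MDAMB231 and 2297 in HCC1806 with both inhibitors, against 1447, 4934 and 3454 with DMSO. JQ1 alone left UBE2C at 1220.2, 2335 and 2651, and GSK2801 alone left it at 1228, 4935 and 3390.0, in the same lines. UBE2C fell with both inhibitors (−1.20 ± 0.37 (adjusted p = 0.0323) by limma), and the ratios were −0.56 in SUM159, −2.46 in MDAMB231 and −0.59 in HCC1806. CDC20, the activator of that complex, was not lower in each line. CDC20 signal stood at 4805 in SUM159, 2560.3 in MDAMB231 and 9513 in HCC1806 with both inhibitors, against 4739, 9692 and 8261 with DMSO. JQ1 alone left CDC20 at 5016, 4252 and 8372, and GSK2801 alone left it at 4189.6, 10442 and 8145, in the same lines. CDC20 was near or above DMSO in SUM159 and HCC1806 with both inhibitors. PTTG1, which encodes securin, had ratios with both inhibitors of −0.32 in SUM159, −1.13 in MDAMB231 and −0.04 in HCC1806.

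Cytokinesis genes (5 members) gave 3 falls with both inhibitors, KIF14, PRC1 and RACGAP1, against 19.8% of all tested genes that fell. Their median was −0.99. KIF14, a kinesin of the central spindle and midbody, lies at chr1:200551497-200620734. KIF14 signal stood at 1228 in SUM159, 491 in MDAMB231 and 2548 in HCC1806 with both inhibitors, against 2725, 3497 and 4158 with DMSO. JQ1 alone left KIF14 at 1565, 1756 and 3433, and GSK2801 alone left it at 1968, 3214 and 4428, in the same lines. KIF14 had ratios with both inhibitors of −1.15 in SUM159, −2.83 in MDAMB231 and −0.71 in HCC1806, and the fall was −1.56 ± 0.37 (adjusted p = 0.0115) by limma. PRC1 encodes the bundler of central spindle microtubules. PRC1 signal stood at 3496 in SUM159, 1435 in MDAMB231 and 3893 in HCC1806 with both inhibitors, against 6352, 7739.9 and 5047 with DMSO. JQ1 alone left PRC1 at 4504, 3749.5 and 4503, and GSK2801 alone left it at 5115, 7001 and 4931, in the same lines. PRC1 fell with both inhibitors, at −1.22 ± 0.35 (adjusted p = 0.0239) by limma. RACGAP1 and KIF23 form the centralspindlin complex. RACGAP1 signal stood at 2358 in SUM159, 1198 in MDAMB231 and 4434 in HCC1806 with both inhibitors, against 3411, 5111 and 5643 with DMSO. JQ1 alone left RACGAP1 at 2664, 2216 and 4748, and GSK2801 alone left it at 2808, 4809.5 and 5110.1, in the same lines. RACGAP1 fell with both inhibitors, at −0.99 ± 0.33 (adjusted p = 0.044) by limma, and did not pass after TMM, median-of-ratios or quantile rescaling. KIF23 had ratios of −0.18 in SUM159, −2.33 in MDAMB231 and 0.22 in HCC1806, and KIF20A, another central spindle kinesin, had −0.69 in SUM159, −2.27 in MDAMB231 and 0.12 in HCC1806.

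GSK2801 alone moved the genes little. By limma 0 of 47 passed, as did 0% of all tested genes, with 0 members and 161 of all genes at an unadjusted p under 0.05. The lowest mean differences were those of FOXM1 (−0.27 ± 0.28), SPC25 (−0.21 ± 0.54) and NDC80 (−0.20 ± 0.44) and the highest those of CDC25B (0.18 ± 0.30), CDK1 (0.0032 ± 0.36) and AURKB (−0.02 ± 0.45). CDK1 turned negative after TMM, median-of-ratios and quantile rescaling. The 95% intervals were −0.90 to 0.36 for FOXM1 and −0.50 to 0.86 for CDC25B. These errors are pooled over all 12 libraries, so they also hold the line differences of the JQ1 libraries. FOXM1 log2 ratios with GSK2801 were −0.40 in SUM159, −0.20 in MDAMB231 and −0.21 in HCC1806. From only the 6 libraries of this contrast, 0 members and 0 of all genes passed as well. In SUM159 46 of the 47 were below DMSO, at log2 ratios between −0.47 (KIF14) and −0.12 (BUB3), with CDC25B at 0.26. In the same line 44.9% of all tested genes were below DMSO. This shift was seen in 1 pair of libraries, of which the DMSO library was the shallowest of the 12 with 24200000 estimated reads, and the part of depth in it was not tested. Members below DMSO in each of the 3 lines numbered 15 with GSK2801, against 17.6% of all genes.

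The addition of GSK2801 to JQ1 had its large differences in MDAMB231. There each of the 47 was lower with both inhibitors than with JQ1, with a median log2 ratio of −1.24, and 36 were at least 2-fold lower, against 3.44% of all tested genes. The median was −0.08 in SUM159 and −0.02 in HCC1806, where 0 members were 2-fold lower, against 2.74% and 3.82% of all genes. In MDAMB231 GSK2801 without JQ1 had a member median of −0.04, and the departure from additivity, the effect of GSK2801 with JQ1 minus its effect without, had a median of −1.18 with all 47 negative. In SUM159 the departure was positive in 41 of 47, with a median of 0.18, and in HCC1806 the median was −0.03. The all-gene medians of the departure were −0.0086, 0.02 and −0.05 in the lines.

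Over the lines none of these differences passed. By limma 0 of 47 members and 0% of all genes passed for both inhibitors against JQ1 (2 members and 1031 of all genes at an unadjusted p under 0.05), and likewise for the departure from additivity (0 members and 171 genes). The lowest mean differences from JQ1 were KIF14 at −0.87 ± 0.37 (adjusted p = 0.662), FOXM1 at −0.85 ± 0.28 (adjusted p = 0.569) and ESPL1 at −0.79 ± 0.39 (adjusted p = 0.727), and the highest were CDC25B at −0.0048 ± 0.30, BUB3 at −0.12 ± 0.15 and KIF18A at −0.18 ± 0.34. CDC25B turned positive, to 0.0046, after TMM rescaling. FOXM1 was 1 of 21 members lower with both inhibitors than with JQ1 in each line, against 20% of all genes. Without the MDAMB231 library with both inhibitors, the member median against JQ1 was 0.14 in place of −0.46, and that of the departure 0.24 in place of −0.34. This library was also the deepest, and the part of its depth and of its high share of top genes in the result was not tested.

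**Figure D4:**
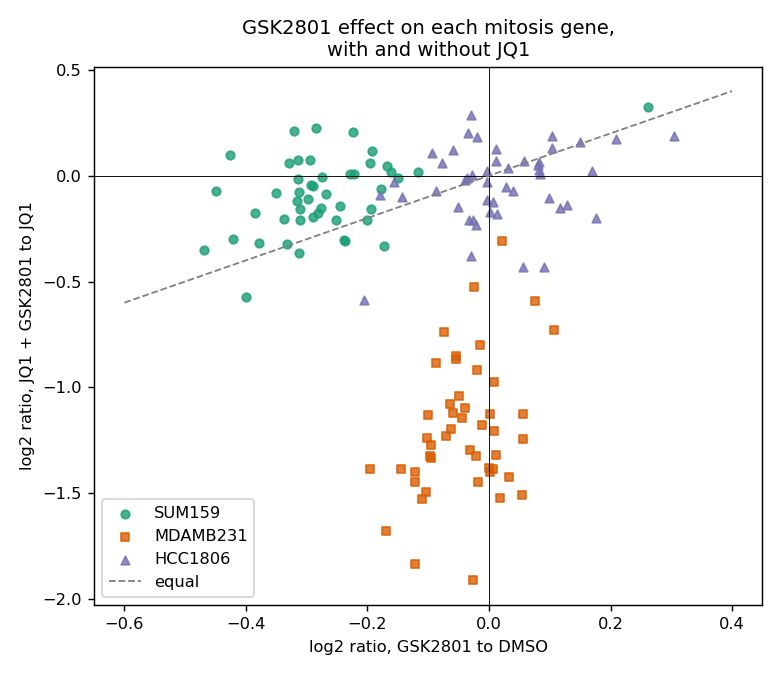
Log2 ratio of JQ1 + GSK2801 to JQ1 (vertical) against log2 ratio of GSK2801 to DMSO (horizontal) for each of the 47 genes in each line. The axes share no library, and the dashed line marks equal effects. The MDAMB231 points lie near 0 on the horizontal axis (median −0.04) and between −1.91 and −0.31 on the vertical axis, while the SUM159 and HCC1806 points stay within −0.59 and 0.33 on it.

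With both inhibitors against GSK2801 alone 8 members fell by limma (17.0%, against 17.2% of all genes that fell): FOXM1, KIF14, CCNA2, ESPL1, NUF2, AURKA, PRC1 and UBE2C. All 8 were among the 11 that fell against DMSO, and these contrasts share the libraries with both inhibitors. FOXM1 was at −1.36 ± 0.28 (adjusted p = 0.00791) and MKI67, which did not pass, at −1.22 ± 0.47 (adjusted p = 0.0806). PRC1 and UBE2C did not pass after TMM, median-of-ratios or quantile rescaling. Leaving out SUM159 gave 1, leaving out MDAMB231 gave 6, of which 5 were among the 8, and leaving out HCC1806 gave 0. Of all genes 2371, 2469 and 1647 passed in these fits. The count was 5 without the MDAMB231 library with both inhibitors and 5 without the MDAMB231 library with JQ1, against 3358 and 3648 of all genes. It was 0 from only the 6 libraries compared, 0 without the line as a block, 4 without a variance trend and 32 with a separate JQ1 effect for each line. Of all genes 300, 3, 3720 and 8216 passed in the same order. Among all calls of this contrast 59.2% were lower as deposited, 48.6% after TMM, 49.2% after median-of-ratios and 47.5% after quantile rescaling.

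The JQ1 effect differed between lines. It was taken here as the mean of the JQ1 difference without and with GSK2801, and its error is the departure from additivity within lines, so the p-values measure neither the spread between cultures nor that between lines. The effect was higher, that is less negative, in SUM159 than in MDAMB231 in 42 of 47 members by limma and lower in none, against 11.4% of all genes that were higher. The count was 14 without a variance trend and 27 with no filter on low values. The median difference was 1.34, against −0.10 over all genes (0.04 after quantile normalization). Taken from the libraries without GSK2801 alone the median difference was 0.68, with 46 of 47 members higher in SUM159, and from those with GSK2801 it was 2.01, with all 47 higher. Without the MDAMB231 library with both inhibitors the fit gave a median of 0.77, and SPC25 was 1.40 in place of 2.07. In that fit, chosen after seeing the data, the error of MDAMB231 is assumed to be that of the other lines. The members that did not pass were CCNB2, DLGAP5, CENPF, KIF14 and MKI67, with differences of 0.81 to 1.43. CDC20 differed by 1.75 ± 0.24 (adjusted p = 0.00362), MAD2L1 by 1.42 ± 0.23 (adjusted p = 0.00551) and AURKB by 1.92 ± 0.33 (adjusted p = 0.00691). MAD2L1 signal stood at 2499 in SUM159, 1062 in MDAMB231 and 1723 in HCC1806 with both inhibitors, against 2463, 3521 and 1866 with DMSO. JQ1 alone left MAD2L1 at 2519, 1849 and 1689, and GSK2801 alone left it at 2221, 3486 and 1976, in the same lines. In MDAMB231 MAD2L1 was low in both JQ1 libraries, and in SUM159 its 4 values lay between 2221 and 2519. Among all calls of this difference 61.1% were lower as deposited and 47.3% after quantile normalization.

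HCC1806 had a higher JQ1 effect than the mean of SUM159 and MDAMB231 in 17 of 47 members by limma (14.5% of all genes were higher), and a lower one in none. The median difference was 0.88, against 0.08 over all genes. BUB1 (1.45 ± 0.31 (adjusted p = 0.0157)), TOP2A (1.35 ± 0.31 (adjusted p = 0.019)) and AURKA (1.22 ± 0.27 (adjusted p = 0.0174)) had the largest differences. BUB3 (0.22 ± 0.11 (adjusted p = 0.203)), CDC25B (0.28 ± 0.14 (adjusted p = 0.182)) and FOXM1 (0.42 ± 0.29 (adjusted p = 0.322)) had the smallest, and none of these 3 passed. NUSAP1, a microtubule-bundling protein, was at 1.04 ± 0.22 (adjusted p = 0.0141), and KIF20A at 1.15 ± 0.28 (adjusted p = 0.0236). The count in either direction was 29 against MDAMB231 alone and 7 against SUM159 alone, where 3454 and 2814 of all genes passed. Of the 7, 4 were among the 17. CDC25B was another of the 7 and had a lower effect in HCC1806 than in SUM159 (−0.37). Without a variance trend the count was 0 (2156 of all genes), and with no filter on low values it was 6 (3070). Without the MDAMB231 library with both inhibitors the median difference was 0.58, and without the MDAMB231 library with JQ1 it was 1.22. Both of these fits draw the error of MDAMB231 from the other lines. Among all calls of this difference 42.4% were lower as deposited and 54.2% after median-of-ratios rescaling.

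NUSAP1 signal stood at 5308 in SUM159, 1743 in MDAMB231 and 7998 in HCC1806 with both inhibitors, against 5810.3, 6084 and 5982 with DMSO. JQ1 alone left NUSAP1 at 5037, 3149 and 7624, and GSK2801 alone left it at 4673, 5861 and 6226, in the same lines. KIF20A signal stood at 2813 in SUM159, 982 in MDAMB231 and 6154 in HCC1806 with both inhibitors, against 4541, 4758 and 5678 with DMSO. JQ1 alone left KIF20A at 3245, 2375 and 6205, and GSK2801 alone left it at 3594, 4455 and 5537, in the same lines. Both genes were highest in HCC1806 in 1 of the JQ1 libraries and lowest in MDAMB231 with both inhibitors.

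Members that departed from the group, by more than 3 scaled median absolute deviations from the member median, were few. With GSK2801 alone CDC25B departed upwards in SUM159 and HCC1806 and in the mean of the lines (0.18 ± 0.30 against a member median of −0.10). With both inhibitors against JQ1, CDC25B departed upwards in the mean, BUB3 in MDAMB231 (−0.31 against a median of −1.24), and FOXM1 downwards in HCC1806 (−0.59 against −0.02). SPC25 departed downwards with JQ1 in MDAMB231, and BUB3 upwards against GSK2801 in MDAMB231. No member had a sign opposite to the group in each of the 3 lines. The order of the members was partly shared between lines, as a description over 47 genes of the same libraries: Spearman's rho was 0.61 to 0.73 between pairs of lines with both inhibitors, 0.51 to 0.66 with JQ1 and 0.18 to 0.43 with GSK2801.

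In the DMSO libraries the lines differed in level. HCC1806 had the highest value of 23 members, MDAMB231 of 22 and SUM159 of 2, and SUM159 had the lowest value of 36. The median log2 ratio of HCC1806 to SUM159 was 0.59 and that of MDAMB231 to SUM159 was 0.41, against −0.05 for both over all genes. HCC1806 and MDAMB231 were alike in the median (0.04), but HMMR was 6.77 times as high in HCC1806 as in MDAMB231 and MAD2L1 was 0.53 times as high. With 1 DMSO library per line, these differences have no replicate.

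Other cell cycle lists that hold none of the 47 were read beside them, with calls in the order higher and lower. With both inhibitors the counts were 0 and 8 of 36 other kinetochore and centromere genes, 2 and 11 of 33 other mitotic kinases, phosphatases and spindle genes, 0 and 4 of 19 condensin and cohesin genes, and 2 and 5 of 17 subunits of the anaphase-promoting complex. They were 0 and 11 of 29 S phase genes, 0 and 6 of 19 DREAM, MuvB and E2F regulators, and 2 and 0 of 5 tested CDK inhibitors (7 listed), against 15% and 19.8% of all genes. With JQ1 alone the same lists gave, in that order, 0 and 1, 2 and 2, 0 and 1, 1 and 3, 0 and 2, 1 and 3, and 2 and 0. With GSK2801 none gave a call.

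The medians of these lists had the same order of lines as the members in part. In MDAMB231 with both inhibitors they were −1.81 for kinases and spindle genes, −1.71 for S phase genes and −1.50 for kinetochore genes, against −2.22 for the 47 members. They were −0.92 for condensin and cohesin, −0.89 for the DREAM and E2F list and −0.44 for the anaphase-promoting complex. In HCC1806 the medians of all 7 lists lay between −0.31 and 0.12.

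**Figure D5:**
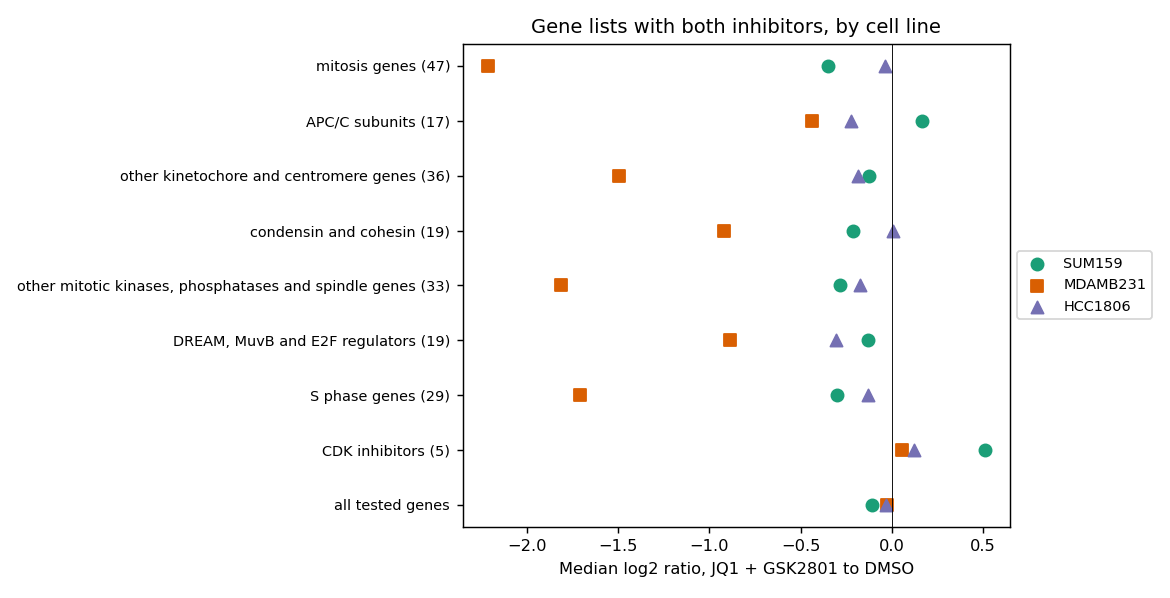
Median log2 ratio of JQ1 + GSK2801 to DMSO in each line for the 47 mitosis genes, 7 other lists (number of tested genes in brackets) and all tested genes. In MDAMB231 the mitosis genes are at −2.22 and the S phase genes at −1.71, and in SUM159 and HCC1806 the mitosis genes are at −0.35 and −0.04.

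Single genes of these lists passed in each direction. E2F2, an activator of S phase genes, fell with both inhibitors (−2.49 ± 0.30 (adjusted p = 0.000599) by limma), and MCM5, a subunit of the replicative helicase, fell by the same test (−1.52 ± 0.21 (adjusted p = 0.0011)). CENPH of the inner kinetochore (−1.22 ± 0.24 (adjusted p = 0.00557)) and BORA, an activator of Aurora A (−1.22 ± 0.22 (adjusted p = 0.0037)), fell as well. CDC26, a subunit of the anaphase-promoting complex, fell (−1.16 ± 0.12 (adjusted p = 0.00035)) and ANAPC16, another subunit, rose (0.90 ± 0.13 (adjusted p = 0.00113)). NEK9, a mitotic kinase (1.52 ± 0.17 (adjusted p = 0.000389)), and TUBB4B, a beta tubulin (1.10 ± 0.11 (adjusted p = 0.000266)), rose, and so did CDKN1A, the gene of the CDK inhibitor p21 (1.67 ± 0.21 (adjusted p = 0.000731)). PDS5A of the cohesin machinery was at −0.47 ± 0.07 (adjusted p = 0.00174) by limma, and CDKN2D, another CDK inhibitor gene, at 0.97 ± 0.21 (adjusted p = 0.00829).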

How the data were processed

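Polyadenylated RNA of 12 libraries was sequenced. Per the submitters' processing notes, the authors used STAR 2.4, Salmon 0.60 and build hg38. Annotation, filters and the scaling are not given in the sources used here, and the labels name KAPA Stranded mRNAseq in one place and Illumina TruSeq RNA v2 in another. The unit of the deposited values was taken as signal: the 75th percentile of values above 0 was 1663.93 in each library, and 67.1% to 69.2% of them were whole multiples of 1 step (tolerance 0.02), so reads were not recovered and no counting interval was computed. The design allowed for count models, which this unit does not.

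Of 28539 entries, 27 with dates as symbols (0.168% to 0.218% of signal) were left out, and genes with a mean of at least 10 were tested. Values were analysed as log2(value + 1), which understates changes of low genes, with limma 3.58.1 (variance trend) in R 4.3.3 on all 12 libraries, with line as a block (6 residual and 3.02 prior degrees of freedom). A line is the replicate, and libraries pair by the cell line label: libraries of 1 line correlated at 0.935 to 0.993, others at 0.685 to 0.810. P-values measure the spread between lines pooled over all 4 treatments, not the spread of a single contrast. The error of GSK2801 against DMSO thus also holds the line differences of the JQ1 libraries. Where lines differ in their JQ1 effect the residuals are not independent. The model of line differences had JQ1 and GSK2801 terms per line (3 residual and 4.48 prior degrees of freedom). P-values were Benjamini-Hochberg adjusted over 14232 genes, with a threshold of 0.05. Fits were run on simulated data with independent noise of reduced spread. There the main fit met a JQ1 effect that was the same in each line, so its error under line differences was not tested. TMM scaling was computed without its count weights. Gene positions are from GENCODE on hg38.

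Members, lists and alternatives were chosen with earlier results of these data known. Named genes are the 6 lowest and 4 highest members for JQ1 and for both inhibitors against DMSO, the 3 lowest and 3 highest for GSK2801 and for both against JQ1 and for the HCC1806 difference, members past the threshold (10 of smallest p), MKI67, CCNB1, CDK1 and PLK1. From each other list, up to 3 genes of smallest p were eligible.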

Additional observations from a re-analysis of the deposited data

Results flagged for a closer look

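The members named here had a JQ1 effect that differed between lines, by a limma test with terms for each inhibitor in each line. The JQ1 effect is the mean of the JQ1 difference without and with GSK2801. The lines also differ in JQ1 dose, and HCC1806 in medium, and these cannot be told apart.

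Between SUM159 and MDAMB231 the effect differed in 42 of 47 members, each higher in SUM159, against 11.4% of all genes that were higher and 17.9% that were lower. The count was 14 without a variance trend and 27 with no filter on low values. Among the 10 with the smallest p, NCAPG differed by 2.07 on the log2 scale, SPC25 by 2.07, AURKB by 1.92, CDC20 by 1.75 and NCAPH by 1.68. MAD2L1 differed by 1.42, NUSAP1 by 1.34, CDC25B by 1.31, RACGAP1 by 1.30 and KIF18A by 1.24.

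Between HCC1806 and the mean of the other lines the effect differed in 17 of 47 members, each higher in HCC1806, against 14.5% of all genes that were higher. None of the 17 passed without a variance trend, and 6 passed with no filter on low values. BUB1 differed by 1.45 and TOP2A by 1.35, AURKA by 1.22, NCAPH by 1.17 and KIF20A by 1.15. NDC80 differed by 1.05, NUSAP1 by 1.04, KIF11 by 1.00, KIF18A by 0.875 and CDC20 by 0.856.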

How the results depend on the processing

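With line as a block (the pairing of the main fit), counts of all genes and of members past the threshold were 3223 and 0 for JQ1 against DMSO, 4959 and 11 for both inhibitors against DMSO, and 4132 and 8 for both against GSK2801. Without the replicate block they were 0 and 0, 41 and 0, and 3 and 0. From only the 6 libraries compared they were 755 and 0, 1012 and 1, and 300 and 0. Line-specific JQ1 terms gave 7479 and 13, 8758 and 37, and 8216 and 32, with 871 and 1 for both against JQ1. Without a variance trend the members were 7 for both against DMSO and 4 against GSK2801. For the HCC1806 difference the members were 6 with no low-value filter, 11 after median-of-ratios rescaling and 0 without a variance trend (2156 genes), and for SUM159 against MDAMB231 27 with no filter and 14 without a trend (2676 genes). The cause of these changes was not tested.

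Counts changed on leaving out a line, or the MDAMB231 library with both inhibitors or with JQ1. These 2 single-library fits were chosen after seeing the data. The ranges were 402 to 3726 genes and 0 to 13 members for JQ1 against DMSO. For both inhibitors they were 2666 to 4507 and 1 to 12 against DMSO, and 1647 to 3648 and 0 to 6 against GSK2801. For the HCC1806 difference they were 2444 to 3454 genes and 7 to 46 members, in either direction. For SUM159 against MDAMB231 the 2 single-library fits gave 1617 to 2691 genes and 32 to 47 members.

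Some single genes changed sign. For JQ1 the left-out ranges were −0.22 to 0.20 for KIF4A, −0.15 to 0.28 for CDK1, −0.19 to 0.32 for CDC25B and −0.24 to 0.48 for NCAPH, and KIF4A was 0.0084 after TMM and 0.012 after median-of-ratios rescaling. For GSK2801 they were −0.089 to 0.059 for AURKB, −0.080 to 0.085 for CDK1 and −0.17 to 0.036 for MKI67, and CDK1 was −0.00088 after TMM, −0.00025 after median-of-ratios and −0.018 after quantile normalization. With both inhibitors against DMSO they were −0.70 to 0.30 for CDK1, −0.76 to 0.37 for KIF11, −0.85 to 0.53 for NCAPH and −0.36 to 0.58 for CDC25B, which was −0.041 after quantile normalization. Against JQ1 they were −0.34 to 0.30 for KIF18A, −0.19 to 0.062 for BUB3, −0.17 to 0.42 for CDC25B, −1.01 to 0.17 for MKI67, −0.68 to 0.23 for CCNB1, −0.55 to 0.19 for CDK1 and −0.80 to 0.19 for PLK1, with CDC25B at 0.0046 after TMM rescaling, and against GSK2801 −0.70 to 0.30 for CDK1. For the HCC1806 difference they were −0.074 to 0.51 for BUB3, −0.37 to 0.94 for CDC25B, −0.14 to 0.99 for FOXM1 and −0.018 to 1.73 for CDC20. Values under the alternatives were counted for single genes and for the median of the mitosis genes. Of these, 1042 were counted as unchanged, 122 lost their call, 30 gained one and 43 changed sign. For single genes, unchanged means the same direction and side of the threshold. A median was counted as unchanged where it moved by less than the standard deviation of the line medians, whatever its sign. All medians are therefore among the 1042. The 43 are single genes only, but medians changed sign too. Without the MDAMB231 library with both inhibitors, the median against JQ1 was 0.14 in place of −0.46. The median of the departure from additivity was then 0.24 in place of −0.34. Precision rests on 1 library per line and treatment.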
